A study of Mus musculus with 6 samples.

Results

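The 10 genes described here make and load the classical MHC class I molecule: the heavy chains H2-K1 and H2-D1, the light chain B2m, the peptide transporter subunits Tap1 and Tap2, the loading factor Tapbp, the immunoproteasome subunits Psmb8, Psmb9 and Psmb10, and the transcriptional activator Nlrc5. They were chosen by name from the mouse gene counts, where all 10 were found among 56884 genes and all 10 were among the 18018 genes tested. Liver RNA was sequenced in bulk, with 3 libraries under the label siControl and 3 under siAATF. The animals were males of the athymic BALB/c (nu/nu) strain, with an age of 6 weeks and genotype WT in the labels, and all carried cells of the human HCC line QGY-7703 in the liver. Athymic mice of this kind have few mature T cells, the cells that read class I peptides most closely, and keep natural killer and myeloid cells. Under the TBG promoter, which is active in hepatocytes, AAV8 vectors delivered either a control siRNA or an siRNA against mouse Aatf, 1 week after implantation, and follow-up lasted another 3 weeks. The comparison asks how these genes of the mouse cells around the tumor differed between the groups. The labels give only a number to each replicate, so that p-values measure the spread between these libraries, which may be technical.

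MHC class I molecules show peptides from inside a cell to cytotoxic T cells and natural killer cells. The proteasome cuts proteins into peptides, TAP pumps these into the endoplasmic reticulum, and tapasin with its partner chaperones helps a heavy chain paired with beta-2-microglobulin to bind them. Resting hepatocytes are known for low class I levels compared with leukocytes and endothelial cells, and interferon gamma raises the whole set, partly through Nlrc5.

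The depth of the mouse counts differed strongly between the groups. They totalled 213022 to 913584 in siControl, 0.778% to 1.93% of all human and mouse gene counts, and 11835898 to 42563694 in siAATF, 97.9% to 99.0%. The labels call every library liver, and which part of the organ was taken for each library, tumor or surrounding tissue, is not given in the sources used here. The paper's methods name blood and tumor tissues as harvested, and RNA as extracted from tissues. The treatment and the tissue sampled therefore cannot be told apart in any difference below, which is one between libraries as labelled. A count of 0 allows up to 3 counts in a library, which is 3.28 to 14.1 CPM (counts per 1e+06 mouse counts) for siControl and 0.0705 to 0.253 for siAATF. Such limits cover counting error only, as PCR copies of a molecule are counted more than once. The siRNA target Aatf had at most 12.8 TMM-normalized CPM in siControl and at least 13.2 in siAATF, so with TMM its RNA was not lower in the libraries labelled siAATF. The change was -0.91 with the total of mouse counts as the scale and did not pass the test (adjusted p = 0.176, edgeR). With all gene counts as the scale it was 5.04 (adjusted p = 3.8e-10, edgeR). The TMM value of Aatf was 0.93 on the log2 scale (standard error 0.47, adjusted p = 0.152, edgeR).

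Cell type markers moved with the groups and stand beside every result below. With TMM (trimmed mean of M-values, which scales libraries by genes near the centre of the changes), all 8 leukocyte markers fell, 5 of them below 0 also with all gene counts as the scale, with a summed level of 1496 to 1568 TMM-normalized CPM in siControl against 47.3 to 118 in siAATF. With TMM 6 of 8 macrophage, 7 of 8 fibroblast and 6 of 8 endothelial markers fell, of which 4, 4 and 1 were below 0 with all gene counts as the scale. Resident liver lists were mixed with TMM: none of 5 Kupffer cell markers was called and all 5 were fitted above 0, and of 5 markers of liver sinusoidal endothelium 2 fell and 1, Clec4g, rose at 3.48 with TMM (adjusted p = 0.0159, edgeR). All 10 hepatocyte markers rose with TMM and were above 0 under all 3 scalings used below, from a summed 3323 to 9277 to between 41441 and 122337, so the defining genes of liver were present in every library. In bulk RNA, fewer cells of a type and less RNA per cell cannot be told apart. The part of these markers in the values of the class I genes was not tested.

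Promoter sequence was available for 8 of the 10 genes and is shown for those whose letters set the heavy chains apart from a relative, and for the stretch that Tap1 shares with Psmb9. Each window runs from 250 bases before to 50 bases after a RefSeq transcription start (GRCm38.p6), read 5′ to 3′ along the gene. Capitals mark 3 short patterns searched on both strands: GGGNNTTNC, read by NF-kappaB, AANNGAAA, the core read by interferon regulatory factors, and TGACGC, part of the X box that Nlrc5 complexes use.
H2-K1, chr17:34000298-34000597, minus strand: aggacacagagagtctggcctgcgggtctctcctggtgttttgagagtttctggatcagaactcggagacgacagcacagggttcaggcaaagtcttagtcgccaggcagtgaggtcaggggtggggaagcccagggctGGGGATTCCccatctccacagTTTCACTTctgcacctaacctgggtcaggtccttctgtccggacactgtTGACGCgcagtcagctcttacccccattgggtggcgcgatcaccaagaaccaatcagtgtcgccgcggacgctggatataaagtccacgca
H2-D1, chr17:35262844-35263143, plus strand: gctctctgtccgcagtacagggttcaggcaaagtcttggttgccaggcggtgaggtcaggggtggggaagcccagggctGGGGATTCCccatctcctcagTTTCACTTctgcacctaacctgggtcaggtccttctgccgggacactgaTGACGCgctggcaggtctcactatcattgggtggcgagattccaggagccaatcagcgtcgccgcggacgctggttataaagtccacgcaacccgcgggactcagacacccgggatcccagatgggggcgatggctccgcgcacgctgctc
H2-Q10, chr17:35469839-35470138, plus strand: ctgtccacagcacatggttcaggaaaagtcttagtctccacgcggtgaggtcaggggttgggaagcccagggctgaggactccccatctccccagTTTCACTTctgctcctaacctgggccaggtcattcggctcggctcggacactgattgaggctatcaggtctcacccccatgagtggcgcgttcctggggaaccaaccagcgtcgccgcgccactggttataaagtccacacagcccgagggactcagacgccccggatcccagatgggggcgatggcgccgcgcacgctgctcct
B2m, chr2:122147437-122147736, plus strand: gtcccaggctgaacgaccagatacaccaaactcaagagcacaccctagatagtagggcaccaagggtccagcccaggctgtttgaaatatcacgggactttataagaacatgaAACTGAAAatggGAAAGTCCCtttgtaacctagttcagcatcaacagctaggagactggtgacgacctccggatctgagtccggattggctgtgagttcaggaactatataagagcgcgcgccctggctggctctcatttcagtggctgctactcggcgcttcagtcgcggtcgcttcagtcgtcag
Tap1, chr17:34187306-34187605, plus strand: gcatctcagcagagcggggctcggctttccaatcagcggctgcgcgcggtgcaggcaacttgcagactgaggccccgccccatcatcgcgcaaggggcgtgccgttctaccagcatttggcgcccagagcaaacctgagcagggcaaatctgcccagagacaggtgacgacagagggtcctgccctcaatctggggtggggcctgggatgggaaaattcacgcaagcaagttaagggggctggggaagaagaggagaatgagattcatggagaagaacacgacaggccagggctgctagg
The windows of H2-K1 and H2-D1 held all 3 patterns in the same order. RefSeq lists 2 starts for H2-K1, of which the first in the table is shown, and the window of the other, 14 bases away, held the same 3 patterns. That of H2-Q10, a secreted class I heavy chain made by hepatocytes, held only the second pattern, and that of B2m held the first and the second. Tap1 and Psmb9 lie head to head, and 275 of the 300 bases of their windows are the same stretch on opposite strands, with none of the patterns. Psmb8, Psmb10 and Tapbp held none either. Of all 32851 windows of this length, 15.2% held the first pattern, 23.9% the second and 7.4% the third. A match describes letters and not a bound site, and the mice were BALB/c while the reference is C57BL/6.

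Of the 10 genes, Tap1 was lower in siAATF with TMM, though not with all gene counts as the scale, and the other 9 did not pass the test. With TMM normalization of the mouse counts and edgeR's quasi-likelihood test, 1 of 10 was called lower at an adjusted p under 0.05, where 14.4% of all genes tested were called lower. None of the 10 was called higher, where 17.6% of all genes were. With an unadjusted p under 0.05, which 42.2% of all genes had, Tap1 was again the only one, and DESeq2 called B2m higher as well as Tap1 lower. None passed the study's criteria, an unadjusted p under 0.05 and an absolute log2 fold change of at least 2, which 13.1% of all genes passed as lower and 13.6% as higher. Of the fitted changes 9 were below 0, the median of the 10 was -0.26, and the median of all genes tested was 0.50. The groups did not overlap for Tap1, lower in siAATF, and for B2m, higher in siAATF, against 18.1% and 34.5% of all genes in these directions. The other 8 genes overlapped. The plot of the 10 genes by library shows these values.

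**Figure D1:**
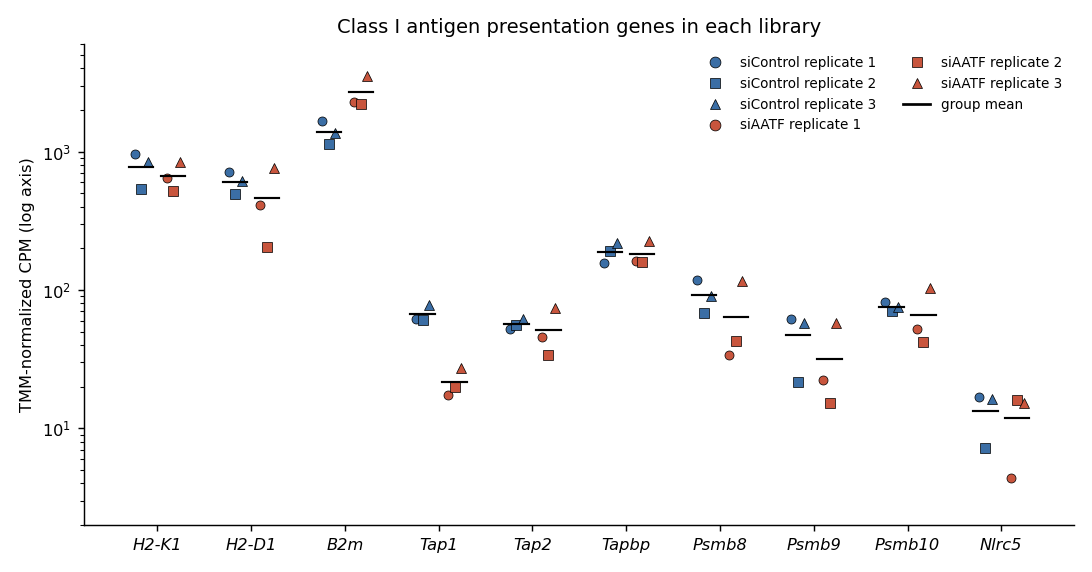
TMM-normalized CPM (log axis) of the 10 class I genes, with siControl libraries in blue, siAATF libraries in red, a marker shape for each replicate number and a black bar at the mean of each group of 3. Tap1 was between 60.3 and 78.0 in siControl and between 17.5 and 27.1 in siAATF without overlap, B2m was higher in all 3 siAATF libraries on this scale, and siAATF replicate 3 stood above the other siAATF libraries in 9 of the 10 genes.

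These directions depend on what the mouse counts are set against. In CPM without a further factor, the 10 genes together took 5126 to 6880 in siControl against 1373 to 2959 in siAATF. Set against all human and mouse gene counts, the order was opposite, with 39.9 to 133 of 1e+06 gene counts in siControl against 1344 to 2925 in siAATF. Scaling by the total of the mouse counts called 9 of the 10 genes lower, all but B2m, where 40.3% of all genes were called lower, and shifted the median of all genes to -1.30. Scaling by all gene counts called all 10 higher, where 87.2% of all genes were called higher, and shifted that median to 4.66. Relative to the median of all genes, Tap1 was at -2.14 with TMM, -2.17 with the mouse total and -2.08 with all gene counts. The same difference for B2m was 0.45, 0.44 and 0.50. It depended on the genes tested: with TMM it was -0.11 without a filter and 0.82 with at least 10 counts in every library. For Tap1 these were -2.71 and -1.77. The plot under 3 scalings shows the same order of the genes in each, apart from H2-D1 and Nlrc5, which change places, while their position against 0 differs.

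**Figure D2:**
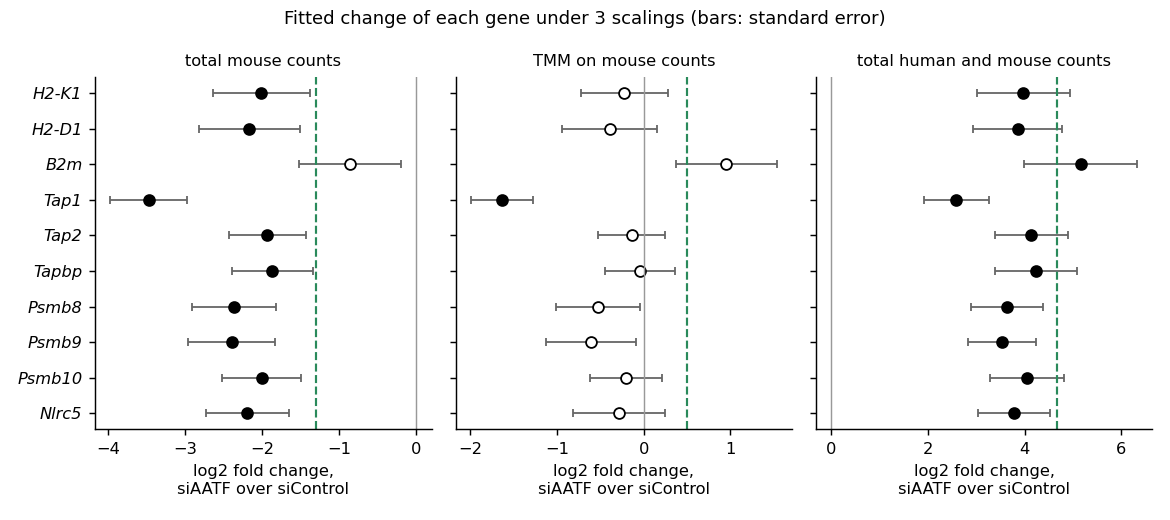
Fitted log2 fold change of each gene (siAATF over siControl, bars of 1 standard error) with the total of mouse counts, TMM on mouse counts or the total of human and mouse counts as the scale, each panel with its own axis. Filled points have an adjusted p under 0.05, the grey line is 0 and the dashed green line is the median of all genes tested, which lay at -1.30, 0.50 and 4.66, with Tap1 farthest below it in each panel.

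Among the chains of the molecule itself, the light chain was higher in siAATF with TMM without passing the test, though not with the mouse total as the scale, and the heavy chains overlapped. B2m (ENSMUSG00000060802, chromosome 2, 121978167 to 121983564 of GRCm39), the light chain shared by all class I heavy chains, had 1663, 1129 and 1362 TMM-normalized CPM in siControl (replicates 1 to 3) against 2299, 2223 and 3511 in siAATF (replicates 1 to 3). All 3 siAATF libraries lay above all 3 siControl libraries. The means were 1385 ± 268 and 2678 ± 723 (SD, n = 3 each), which differed by 0.95 on the log2 scale (standard error 0.58, adjusted p = 0.237, edgeR). The change was positive with TMM and turned to -0.86 with the total of mouse counts as the scale. DESeq2 gave 0.83 and an adjusted p of 0.0341 for B2m. H2-K1 (ENSMUSG00000061232, chromosome 17, 34214991 to 34219321), one of the classical heavy chains, had 957, 536 and 835 TMM-normalized CPM in siControl against 642, 517 and 834 in siAATF. Its highest siAATF library was as high as siControl replicate 3. The log2 fold change of H2-K1 was -0.22 (standard error 0.50, adjusted p = 0.764, edgeR). H2-D1 (ENSMUSG00000073411, chromosome 17, 35481706 to 35486475), the other heavy chain of the pair, had 712, 497 and 613 TMM-normalized CPM in siControl against 414, 205 and 768 in siAATF. The lowest and the highest of these 6 values were both siAATF libraries. The difference of H2-D1 was -0.39 on the log2 scale (standard error 0.55, adjusted p = 0.602, edgeR). Class I heavy chains are close relatives and vary between strains, and the authors discarded reads with several positions or many mismatches, so that levels of H2-K1, H2-D1 and their relatives are uncertain where such reads were lost.

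A ratio of 2 genes within a library does not depend on the scaling. Of 12 ratios computed, 8 were listed in the design and 4 were added after the values were seen. For each an exact two-sided permutation test of 3 libraries against 3 can reach no p below 0.1. How often ratios of other gene pairs separate these groups was not computed, so a lack of overlap is not particular to these genes. Per kb of gene length, H2-K1 stood to B2m as 0.299, 0.247 and 0.319 in siControl (replicates 1 to 3) against 0.145, 0.121 and 0.123 in siAATF (replicates 1 to 3). The siAATF ratios were 2.21-fold lower without overlap (exact permutation p = 0.1, adjusted p = 0.133 over the 12). H2-D1 stood to B2m as 0.163, 0.168 and 0.172 in siControl against 0.0687, 0.0352 and 0.0833 in siAATF. This ratio was 2.86-fold lower without overlap (exact permutation p = 0.1, adjusted p = 0.133). The siControl libraries spanned a narrow range here and siAATF replicate 2 was the lowest. H2-K1 over H2-D1 was 1.47 to 1.85 in siControl against 1.48 to 3.43 in siAATF, with overlap (exact permutation p = 0.4, adjusted p = 0.436).

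The heavy chains can also be set beside the pan-leukocyte gene Ptprc, which encodes CD45. H2-K1 stood to Ptprc as 28.5, 10.7 and 18.1 per kb in siControl against 385, 157 and 143 in siAATF. The ratio was 11.6-fold higher in siAATF without overlap (exact permutation p = 0.1, adjusted p = 0.133), in a comparison chosen after the values were seen. Ptprc had 103 to 154 TMM-normalized CPM in siControl against 5.14 to 18.1 in siAATF.

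Of the 2 transporter subunits, which act as a pair, Tap1 fell with TMM, though not with all gene counts as the scale, and Tap2 did not pass the test. Tap1 (ENSMUSG00000037321, chromosome 17, 34406527 to 34416199) was counted 77, 25 and 140 times in siControl against 507, 99 and 489 times in the deeper siAATF libraries. These were 61.8, 60.3 and 78.0 TMM-normalized CPM in siControl against 17.5, 19.9 and 27.1 in siAATF, with every siAATF library below every siControl library. The means were 66.7 ± 9.82 and 21.5 ± 5.0 (SD, n = 3 each). The log2 fold change of Tap1 was -1.64, a 3.12-fold lower level (standard error 0.36, adjusted p = 0.00375, edgeR), and it was +2.58 with all gene counts as the scale. Tap2 (ENSMUSG00000024339, chromosome 17, 34422501 to 34435295) had 52.1, 55.5 and 61.3 TMM-normalized CPM in siControl against 46.0, 33.6 and 73.8 in siAATF. The siAATF libraries lay on both sides of siControl, and the log2 fold change of Tap2 was -0.14 (standard error 0.39, adjusted p = 0.817, edgeR).

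Within libraries, Tap1 over Tap2 per kb was 1.38, 1.26 and 1.48 in siControl against 0.443, 0.692 and 0.428 in siAATF. Tap1 was thus the higher of the pair in each siControl library and the lower in each siAATF library. The mean log2 ratio differed by -1.43 without overlap (exact permutation p = 0.1, adjusted p = 0.133). Tapbp (ENSMUSG00000024308, chromosome 17, 34138306 to 34148266) encodes tapasin, which bridges TAP and the empty class I molecule. It had 157, 191 and 217 TMM-normalized CPM in siControl against 161, 160 and 226 in siAATF, nearly the same range. The log2 fold change of Tapbp was -0.04 (standard error 0.40, adjusted p = 0.948, edgeR). Tapbp over Tap1 per kb was 2.58, 3.18 and 2.82 in siControl against 9.38, 8.15 and 8.50 in siAATF. The ratio was 3.04-fold higher without overlap (exact permutation p = 0.1, adjusted p = 0.133).

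**Figure D3:**
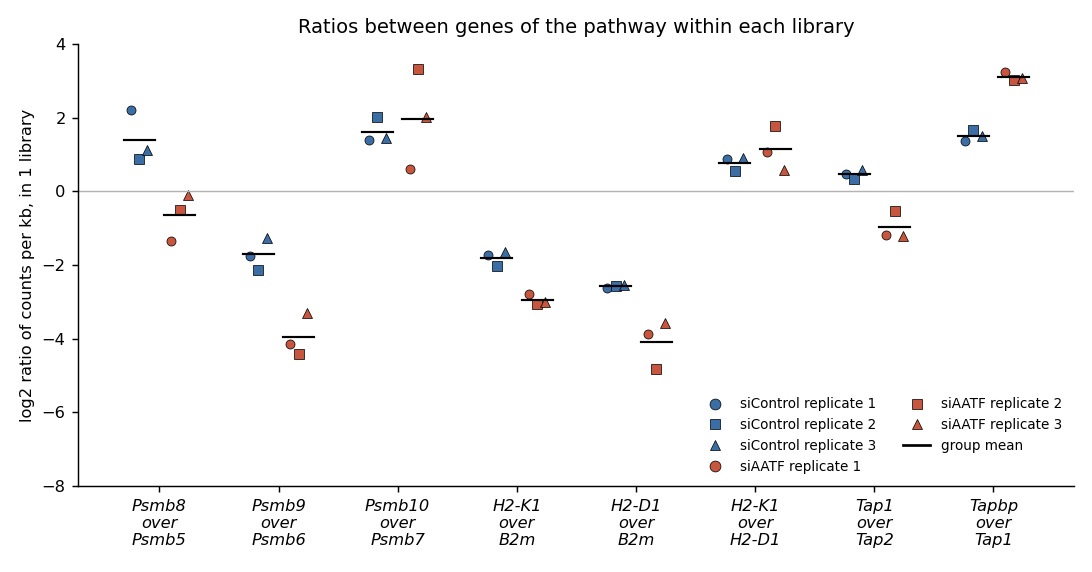
Log2 ratio of counts per kb between 2 genes of the same library, for the 8 ratios of the design, with siControl in blue, siAATF in red, a marker shape for each replicate number and a black bar at the mean of each group of 3. The groups do not overlap for 6 ratios, all but Psmb10 over Psmb7 and H2-K1 over H2-D1. The share of other gene pairs whose ratios do not overlap was not computed. The groups of H2-K1 over B2m differ by -1.15 and those of Tapbp over Tap1 by 1.60 on this scale.

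The immunoproteasome subunits replace the catalytic subunits of the constitutive proteasome in cells exposed to interferon gamma and in most leukocytes. Psmb8 (ENSMUSG00000024338, chromosome 17, 34416764 to 34420428) had 117, 67.6 and 90.8 TMM-normalized CPM in siControl against 34.0, 42.5 and 116 in siAATF. Replicates 1 and 2 of siAATF lay below siControl and replicate 3 lay within it. The log2 fold change of Psmb8 was -0.53 (standard error 0.49, adjusted p = 0.422, edgeR). Psmb9 (ENSMUSG00000096727, chromosome 17, 34400961 to 34406738) had 61.8, 21.7 and 57.4 TMM-normalized CPM in siControl against 22.4, 15.1 and 57.6 in siAATF. The highest siAATF value was again that of replicate 3, and siControl replicate 2 was as low as siAATF replicate 1. The difference of Psmb9 was -0.61 on the log2 scale (standard error 0.52, adjusted p = 0.385, edgeR). Psmb10 (ENSMUSG00000031897, chromosome 8, 106662371 to 106665076) had 81.8, 70.0 and 75.8 TMM-normalized CPM in siControl against 52.3, 41.9 and 104 in siAATF. The siAATF libraries lay on both sides of siControl, and the log2 fold change of Psmb10 was -0.20 (standard error 0.42, adjusted p = 0.740, edgeR).

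The calls of Psmb8 and Psmb9 turned on 1 library and on the scale, that of Psmb8 also on thinning of the counts, and that of Psmb10 on the scale. Without siAATF replicate 3, Psmb8 was at -1.21 (adjusted p = 0.0431, edgeR) and Psmb9 at -1.29 (adjusted p = 0.0329, edgeR), and 3 of the 10 genes were called lower in place of 1, while Psmb10 was at -0.63 (adjusted p = 0.287, edgeR). With all 6 libraries thinned to the smallest total, Psmb8 was at -1.35 (adjusted p = 0.0399, edgeR) and Psmb9 at -0.67 (adjusted p = 0.426, edgeR). Thinning also cut the genes tested to 9680, and relative to the median of all genes Psmb8 was at -1.03 before and -1.06 after it. With the mouse total as the scale all 3 subunits were called lower. The summed level of 6 neutrophil markers was 137 TMM-normalized CPM in siAATF replicate 3 against 2.79 and 2.22 in siAATF replicates 1 and 2. The summed leukocyte markers were 118 against 100 and 47.3. In siControl the neutrophil sums were 90.6, 1897 and 1399 (replicates 1 to 3), lowest in replicate 1, where Psmb8 and Psmb9 were the highest of that group. Whether these cells account for the difference was not tested.

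Each immunoproteasome subunit has a constitutive counterpart. Psmb5, the counterpart of Psmb8, rose from 13.6, 19.3 and 22.8 to 47.9, 33.2 and 68.4 TMM-normalized CPM. Its change was 1.42 on the log2 scale (standard error 0.41, adjusted p = 0.0178, edgeR), and -0.37 with the total of mouse counts as the scale. Psmb6, the counterpart of Psmb9, rose from 123, 57.9 and 81.3 to 233, 193 and 336, and the change of Psmb6 was 1.53 (standard error 0.45, adjusted p = 0.0202, edgeR), against -0.26 with the total of mouse counts. Every siAATF library lay above every siControl library for both genes with TMM. Psmb7, the counterpart of Psmb10, had 27.3, 14.5 and 24.5 in siControl against 30.7, 3.63 and 22.8 in siAATF, and its change was -0.25 (adjusted p = 0.784, edgeR). The value in siAATF replicate 2 rested on 18 counts, and that in siControl replicate 2, the library with the fewest mouse counts, on fewer.

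Within libraries, the balance of immunoproteasome to constitutive subunit did not overlap between the groups for the first and the second of these pairs, though no test of this size can pass. Psmb8 over Psmb5 per kb was 4.62, 1.85 and 2.18 in siControl against 0.392, 0.706 and 0.936 in siAATF. Psmb8 was thus the higher in each siControl library and Psmb5 in each siAATF library, replicate 3 included, a 4.16-fold lower ratio (exact permutation p = 0.1, adjusted p = 0.133). Psmb9 over Psmb6 was 0.298, 0.229 and 0.417 in siControl against 0.0569, 0.0464 and 0.101 in siAATF, a 4.74-fold lower ratio without overlap (exact permutation p = 0.1, adjusted p = 0.133). In siControl replicate 2, Psmb9 had 9 counts and Psmb5 also had few. Psmb10 over Psmb7 was 2.63, 4.02 and 2.71 in siControl against 1.51, 9.97 and 4.02 in siAATF, which overlapped (exact permutation p = 0.7, adjusted p = 0.7).

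Tap1 and Psmb9 share more than a promoter. Their exons overlap by 212 bases on opposite strands, 7.18% of the exon length of Tap1 and 15.7% of that of Psmb9. Whether the counting used the strand is not given in the sources used here, so reads from the shared bases cannot be assigned to one of the pair. Per kb, Tap1 over Psmb9 was 0.458, 1.23 and 0.622 in siControl against 0.357, 0.603 and 0.215 in siAATF, with overlap (exact permutation p = 0.2, adjusted p = 0.24), in a comparison chosen after the values were seen. Exons of Tap2, Tapbp, Psmb8 and Nlrc5 also overlap genes on the other strand, and those neighbours had at most 17 counts in any library.

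Nlrc5 (ENSMUSG00000074151, chromosome 8, 95161019 to 95253900), the activator that binds class I promoters through other factors, was the lowest of the 10 per kb of gene length. It had 21, 3 and 29 counts in siControl against 126, 80 and 274 in siAATF. These were 16.8, 7.24 and 16.2 TMM-normalized CPM in siControl against 4.34, 16.1 and 15.2 in siAATF. The lowest value was that of siAATF replicate 1, the groups overlapped, and the change of Nlrc5 was -0.29 on the log2 scale (standard error 0.53, adjusted p = 0.712, edgeR). Its relative Ciita, the activator of MHC class II genes, fell from 13.6, 14.5 and 9.47 to 1.10, 2.42 and 3.10 TMM-normalized CPM, a change of -2.48 on the log2 scale (standard error 0.57, adjusted p = 0.00516, edgeR), which was 1.72 with all gene counts as the scale. Nlrc5 over Ciita per kb was 1.24, 0.545 and 1.71 in siControl against 3.94, 6.52 and 4.92 in siAATF, 4.78-fold higher without overlap (exact permutation p = 0.1, adjusted p = 0.133), in a comparison chosen after the values were seen. In siControl replicate 2 this ratio rested on 3 counts of Nlrc5 and few of Ciita.

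The order of the levels was largely shared by the groups. In CPM of mouse counts per kb of gene length, B2m was highest in both, with a mean of 3031 ± 443 (SD, n = 3) in siControl and 1671 ± 528 in siAATF. H2-K1 followed with 882 ± 219 and 219 ± 75.9, and H2-D1 with 508 ± 69.5 and 113 ± 69.6. Tapbp, Psmb10, Psmb8 and Psmb9 came next in both groups, from 124 down to 65.2 in siControl and from 33.8 down to 12.7 in siAATF, and each overlapped its neighbour in this order. In siControl Psmb9 also overlapped Tap1, which followed at 42.9 ± 7.90. Tap2 came after it at 31.1 ± 4.07, and the ranges of Tap1 and Tap2 did not overlap. In siAATF Tap2 stood before Tap1, at 8.10 ± 3.60 and 3.87 ± 0.963, with overlapping ranges and Tap2 above Tap1 in all 3 libraries. This exchange was the only one in the order. Nlrc5 was last at 3.11 ± 1.19 and 0.721 ± 0.315, below every other gene in both groups. In siAATF the ranges of H2-K1 and H2-D1 also overlapped, and so did those of H2-D1 and Tapbp.

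Other genes of the pathway were taken from 7 lists by role. With TMM, 12 of the 80 tested were called higher, 15.0% against 17.6% of all genes, and 18 were called lower, 22.5% against 14.4%, shares beside which the counts of each list below are to be read. The count of 12 rested on single libraries, being 4 without siControl replicate 3 and 25 without siAATF replicate 2, while the count of 18 stayed between 13 and 19 with each library left out. Of the 12, 7 stayed above 0 with the total of mouse counts as the scale, and of the 18, 2 stayed below 0 with all gene counts. Among 13 chaperones and peptidases of loading and trimming, 3 rose with TMM, stayed above 0 with both totals and passed no test with the mouse total, and none fell, with a median log2 fold change of 0.89. Hsp90b1, an endoplasmic reticulum chaperone, was at 2.48 (standard error 0.59, adjusted p = 0.00676, edgeR), and Calr, the calreticulin that holds the heavy chain in the loading complex, at 2.03 (standard error 0.61, adjusted p = 0.0224, edgeR). Ide, the insulin-degrading enzyme, was at 1.97 (standard error 0.38, adjusted p = 0.00189, edgeR). Among 7 proteasome activators and assembly factors, 1 rose with TMM, the assembly chaperone Psmg1 at 1.59 (adjusted p = 0.0286, edgeR) and -0.11 with the mouse total, and the median was 0.71. The activator subunit Psme1 had 91.7 to 146 TMM-normalized CPM in siControl against 124 to 269 in siAATF, and the maturation factor Pomp had 74.6 to 106 and 84.4 to 234. Of 11 other 20S core subunits 3 rose, Psma4, Psma7 and Psmb3, by 1.94, 1.73 and 1.62 on the log2 scale with TMM and 0.060, -0.14 and -0.21 with the mouse total, and the median was 0.67. The medians of these 3 lists and of the 10 class I genes, -0.26, are read beside the 0.50 of all genes.

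Heavy chains outside the classical pair moved in both directions. Of the 19 counted, 16 were tested, and 3 rose, under all 3 scalings, and 4 fell, which with all gene counts were above 0, with a median of -0.35, or -0.61 where a gene whose levels allow no fold is left out. H2-Q10 was at 4.17 (standard error 0.79, adjusted p = 0.00160, edgeR), with 619, 232 and 275 TMM-normalized CPM in siControl against 7417, 3976 and 8904 in siAATF. It was far above the siControl range in every siAATF library. Azgp1, a secreted zinc-binding relative of class I chains, was at 3.92 (adjusted p = 0.00110, edgeR), and Cd1d1, which presents lipids to NKT cells, at 3.68 (adjusted p = 0.000518, edgeR). The 4 that fell, named after their values were seen, were H2-M3 at -2.70, H2-Q6 at -2.26, H2-T24 at -2.14 and H2-T10 at -1.97. H2-M3 and H2-Q6 each overlapped between the groups and had at most 1 count in siControl replicate 2. Within libraries, H2-Q10 over H2-K1 per kb was 0.538, 0.361 and 0.274 in siControl against 9.60, 6.39 and 8.87 in siAATF. H2-K1 was thus the higher in each siControl library and H2-Q10 in each siAATF library, a 21.7-fold higher ratio (exact permutation p = 0.1, adjusted p = 0.133) in a comparison chosen after the values were seen. Of the windows shown, that of H2-K1 held the first and the third pattern and that of H2-Q10 did not. Whether these letters bear on the ratio was not tested.

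Of 26 regulators of class I transcription 24 were tested, 10 fell and none rose with TMM, the 10 were above 0 with all gene counts as the scale, and the median was -0.79. Irf8, an interferon regulatory factor of myeloid and B cells, was at -3.42 (standard error 0.43, adjusted p = 0.000115, edgeR). Socs1, a feedback inhibitor of JAK kinases, was at -3.16 (adjusted p = 0.00389, edgeR), and Relb, an NF-kappaB subunit, at -2.74 (adjusted p = 0.00116, edgeR). The highest of the list did not pass the test: the kinase Jak1 had 86.9 to 101 TMM-normalized CPM in siControl against 107 to 175 in siAATF, and Stat2 had 73.8 to 82.5 and 96.1 to 195. Ifng and Ifnb1, the interferon genes of the list, had at most 1 count in any library and were not tested.

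A list of receptors that read class I also holds some, such as Klrk1 and Ncr1, that do not bind the classical molecules. Of these receptors 13 were in the table, 6 were tested and 4 fell with TMM, of which 2 were above 0 with all gene counts as the scale. Cd8a, the alpha chain of the T cell coreceptor for class I, had 1, 4 and 13 counts in siControl against 0, 0 and 3 in siAATF, at least 20.2-fold lower on the TMM scale against a floor of 3 counts per library, while with all gene counts as the scale Cd8a did not pass the test (adjusted p = 0.128, edgeR). Cd8b1, the beta chain, had 0, 1 and 8 counts in siControl against 0, 0 and 1 in siAATF. Pirb, an inhibitory receptor of myeloid and B cells, was at -3.88 (standard error 0.54, adjusted p = 0.000235, edgeR), and Klrk1, the activating natural killer receptor NKG2D, at -3.72 (standard error 0.72, adjusted p = 0.00188, edgeR). The median of the list was -3.80 with and without the bounds. The plot by list sets these beside the leukocyte and hepatocyte markers.

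**Figure D4:**
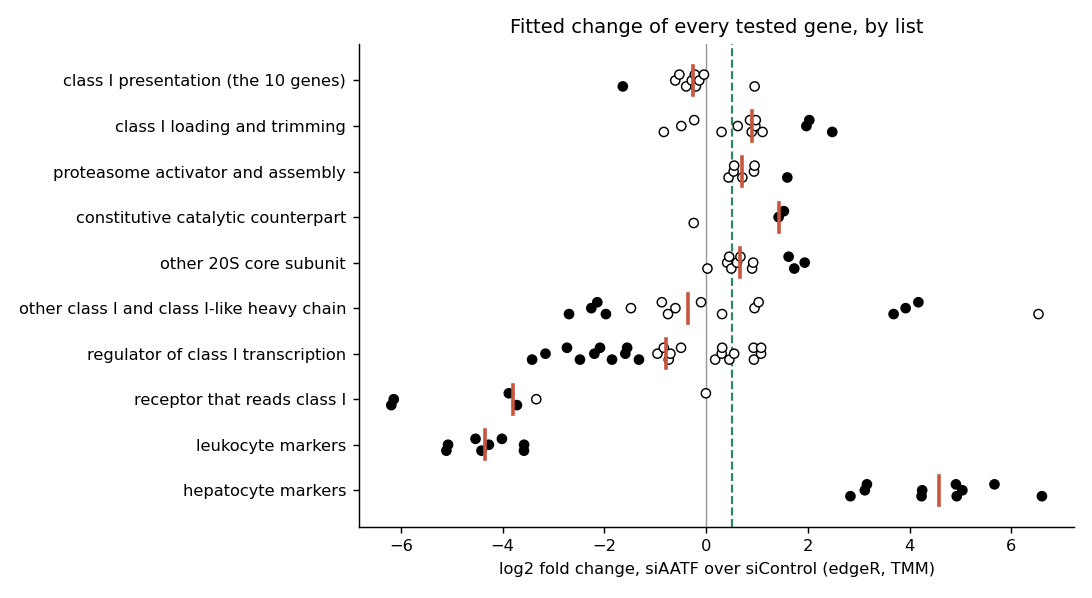
Log2 fold change (siAATF over siControl, TMM, edgeR) of each tested gene in the lists by role, with leukocyte and hepatocyte markers at the bottom. Filled points have an adjusted p under 0.05, the red bar is the median of a list, the grey line is 0 and the dashed green line is the median of all genes, 0.50, and the 10 class I genes lie between -1.64 and 0.95, while leukocyte markers have a median of -4.35 and hepatocyte markers one of 4.58.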

How the data were processed

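Bulk RNA of 6 liver libraries, 3 per group, was prepared with a SMART-Seq kit. The authors trimmed reads with Cutadapt, aligned them with STAR 2.7.11 to the human and mouse genomes together (GRCm39 for mouse), discarded reads with several positions, and counted the rest on genes with featureCounts 2.0.1. The values used are the raw counts that the authors deposited, with gene lengths. Identifiers were named from the GENCODE mouse release M39 (56323 of 56884).

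Mouse counts were tested with edgeR 4.0.16 (TMM, quasi-likelihood, genes reaching 10 counts in total, group only) in R 4.3.3, with Benjamini-Hochberg adjustment over 18018 genes. Ratios were log2 of counts plus 0.5 per kb, tested by exact permutation. Alternatives were DESeq2 1.42.0, limma-voom (limma 3.58.1), other scalings and filters, thinning, a replicate block and leaving out replicates. Members and lists were chosen with earlier results of these data known. Named were all 10 genes, Aatf, Psmb5, Psmb6, Psmb7 and, per role list, the 3 largest called changes and the 2 highest levels. Same-numbered libraries correlated at 0.110, 0.154 and -0.024 in their deviations from the group means, so the numbers were not taken as pairs. The siControl libraries held 3 to 2444 counts for each of the 10 genes.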

Additional observations from a re-analysis of the deposited data

How the results depend on the processing

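The calls depended on the scale. With the mouse total alone, 9 of the 10 genes were called lower and 7 passed the study's criteria, B2m reversed to -0.86, and 41 other pathway genes were called lower and 3 higher. With all gene counts as the library size, 0 were called lower, all 10 were called higher and passed the study's criteria, and 0 other pathway genes were called lower and 70 higher. The 9 negative fold changes then reversed, H2-K1 to 3.97, H2-D1 to 3.85, Tap1 to 2.58, Tap2 to 4.14, Tapbp to 4.23, Psmb8 to 3.63, Psmb9 to 3.54, Psmb10 to 4.04 and Nlrc5 to 3.78. Between TMM and these scalings the calls over all genes went from 2593 lower and 3169 higher to 7267 and 748 with the mouse total and to 119 and 15711 with all gene counts. DESeq2 called 1 member higher, B2m. Without a filter Tapbp was at 0.037. With at least 10 counts in every library, 7 other pathway genes were called lower, where fewer genes could be tested. After thinning to the smallest total, 2 members were called lower and 7 other pathway genes higher. Tap1 was called lower with each tool, filter and left-out library tried, and with each scaling except all gene counts.

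Leaving out each library in turn, members called lower numbered 1 to 3 (3 without siAATF replicate 3), members called higher 0 to 0, other pathway genes called lower 13 to 19, and those called higher 4 without siControl replicate 3 to 25 without siAATF replicate 2, against 12. Fold changes ranged from -0.90 to 0.011 for H2-D1, -0.44 to 0.13 for Tap2, -0.18 to 0.082 for Tapbp, -0.63 to 0.084 for Psmb10 and -0.51 to 0.17 for Nlrc5. Psmb10 over Psmb7 ranged from -0.31 without siAATF replicate 2 to 1.05. The other 7 ratios of the design kept their direction with each pseudocount, without gene length and with each library left out. The cause of these shifts was not tested.

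With the replicate number as a block, Tap1 was at -1.65, 1 member was called lower, and 19 other pathway genes were called lower and 15 higher. The block changed no other call of a member. Blocked ratio differences were -2.06 for Psmb8 over Psmb5 and -1.43 for Tap1 over Tap2, where 3 pairs can reach no exact p below 0.25. Depth limits low values in siControl, where Nlrc5 had 3 counts in replicate 2.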
